A study of Mus musculus with 38 samples.

Results

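The 2 arrays of LuRKO mouse testis taken 12 h after an intraperitoneal injection of 2.5 mg testosterone propionate were compared with 4 arrays of LuRKO testis that had received 250 ng or 2.5 µg of the same ester and were taken at 24 h. The samples were chosen by their labels alone, and make up 6 of the 38 arrays of the series. All animals in these 6 arrays were LuRKO mice, which lack a functional receptor for luteinizing hormone, and all were injected at day 19 after birth. One array read a pool of testis RNA from 2 animals, and each dose or time used had a replicate A and a replicate B. The spread behind each p-value is therefore that of pools, not of single animals. It is shared over the groups of all 38 arrays, so for a given gene it can be smaller or larger than that within these 6. The rest of the series holds LuRKO day 19 testes at 2, 4, 8, 24 and 48 h after 2.5 mg, at 24 h after 25 µg or vehicle, and untreated, besides untreated LuRKO and wild-type testes from day 3 to day 27. The low doses were collected 12 h later after injection than the 2.5 mg arrays and belong to the dose set rather than the time set. Dose, hours since injection, hours of age, set and any difference in time of day therefore cannot be told apart in this comparison. The targeted receptor gene itself was not analysed here.

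Luteinizing hormone drives Leydig cells, in the space between the seminiferous tubules, to make testosterone. Testosterone acts through a nuclear receptor on Sertoli, peritubular myoid and Leydig cells, while germ cells depend on the hormone through the Sertoli cells that surround them. Testosterone propionate is an ester from which testosterone is released in the body. LuRKO testes keep their Leydig and Sertoli cell lineages but make little testosterone, and spermatogenesis stalls before late spermatids form.

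The arrays are single-colour Illumina bead arrays, and every level below is the log2 of the probe intensity that the authors had normalized by quantiles. A probe was tested if it had 1 gene symbol and lay above background, 6.69 on the log2 scale, on at least 2 of the 6 arrays. This kept 13006 genes of 19057 with a symbol. Array medians lay between 108.1 and 108.3 on the linear scale, and the 6 arrays correlated with each other at 0.986 to 0.995. Leydig cell (4 of 5), Sertoli cell (5 of 5) and germ cell (3 of 5) markers with a probe were above background on all 6 arrays. So were macrophage (5 of 5), endothelial (4 of 4), peritubular myoid (2 of 3) and erythroid (2 of 2) markers. None of the 3 epididymal and none of the 2 lymphocyte markers were. The array labelled vehicle replicate A stood apart from the LuRKO arrays and went against its label. Insl3, a peptide hormone of Leydig cells, was at 12.34 there and at 9.24 in vehicle replicate B, against 13.01 and 12.70 in wild type at day 19. The same array had Cyp17a1, a steroid-synthesis enzyme, at 10.92 against 7.46 in replicate B, and its label gives 34 h past day 19 as its age where the vehicle partner gives 24. It is not part of the 12 h comparison, and leaving it out of the fit called 191 genes higher and 92 lower in place of the 176 and 83 below.

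The promoters of Rhox5, which had the largest increase at 12 h, and of 4 kallikrein paralogs are shown first. Sequences are those of RefSeq on GRCm38.p6, matched by symbol and read 5′ to 3′ on the plus strand. For Rhox5, an X-linked homeobox gene of Sertoli cells long known to respond to androgen, the 250 bases before the annotated start (chrX:37754358-37754607) are given with capitals marking TGTTCT, the only match to the 6-letter androgen and glucocorticoid receptor core AGAACA on either strand.
Rhox5: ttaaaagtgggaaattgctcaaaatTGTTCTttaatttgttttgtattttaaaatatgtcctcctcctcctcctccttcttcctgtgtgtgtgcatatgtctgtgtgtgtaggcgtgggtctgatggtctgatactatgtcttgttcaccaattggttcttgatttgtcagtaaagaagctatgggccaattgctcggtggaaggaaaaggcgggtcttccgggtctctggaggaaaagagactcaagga
In Rhox5 it lies at -225 to -220 from the start. Of the 15 genes named below as higher 14 had a window, and of the 15 named as lower 9 had, some with several. Either orientation of the core occurred in 4 of 17 windows (23.5%) of the higher genes and in 5 of 15 (33.3%) of the lower. Among all RefSeq promoters of that length it occurred in 5284 of 32851 windows (16.1%). By gene, 3 of 14 and 3 of 9 had a match, against 4912 of 27025 of all genes with a window. A facing pair of cores with 3 bases between them occurred in 3 of the 32851 windows and in none of the named genes' windows. A match is only a description of these letters.

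For the kallikrein paralogs Klk1b21 (chr7:44102155-44102254), Klk1b24 (chr7:44188064-44188163), Klk1b26 (chr7:44012510-44012609) and Klk1b27 (chr7:44052131-44052230), 100 bases upstream of the start are given. Capitals mark the longest run, 16 bases, that all 4 share within 250 bases of their starts.
Klk1b21: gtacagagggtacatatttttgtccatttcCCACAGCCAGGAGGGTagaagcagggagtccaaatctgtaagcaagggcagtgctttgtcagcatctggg
Klk1b24: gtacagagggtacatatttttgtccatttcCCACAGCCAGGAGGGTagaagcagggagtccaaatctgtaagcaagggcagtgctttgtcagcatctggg
Klk1b26: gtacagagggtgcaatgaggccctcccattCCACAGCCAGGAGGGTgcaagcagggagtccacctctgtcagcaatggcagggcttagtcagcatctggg
Klk1b27: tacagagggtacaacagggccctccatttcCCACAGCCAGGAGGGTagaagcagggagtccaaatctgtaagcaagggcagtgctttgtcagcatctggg
Position by position, with no gaps allowed, the stretches of Klk1b21 and Klk1b24 were identical at all 100 positions shown. Klk1b26 and Klk1b27 matched at 71 of 100, a count lowered by the shifted start of the Klk1b27 stretch. Over the 250 bases, aligned identity among the 4 ranged from 64.6% (Klk1b21 and Klk1b26) to 82.6% (Klk1b24 and Klk1b27). It was 79.2% for Klk1b26 and Klk1b27. Likeness of promoters does not show whether a probe reads several paralogs. Transcripts of close paralogs can share a probe, but probe and transcript sequences were not compared here. Whether the levels below belong to single family members was therefore not tested.

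At 12 h, 176 of 13006 genes were higher than in the low-dose arrays (1.35% of genes tested) and 83 were lower (0.638%), by limma's moderated test with Benjamini-Hochberg adjusted p under 0.05. The median difference among the genes called was 0.69 on the log2 scale for those higher and -0.52 for those lower, and 40 of the higher genes but none of the lower ones changed by 2-fold or more. Both 12 h arrays lay above all 4 low-dose arrays for 157 of the 176 genes and below all 4 for all 83 lower genes. Such separation was common whether called or not, since 1599 of the genes tested (12.3%) lay wholly above and 1543 (11.9%) wholly below. Genes known from androgen action, the kallikreins and genes of spermatids were among those higher, and are described in turn.

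Rhox5 had the largest increase, from 8.19 and 8.16 at 250 ng and 8.50 and 8.30 at 2.5 µg to 11.06 and 10.88 at 12 h. The groups were far apart relative to their own spread (SD 0.13 at 12 h and 0.15 at the low doses). The difference was 2.68 ± 0.40 (log2, SE), or 6.43-fold (adjusted p = 2.8e-04). This SE rests on the spread shared by all arrays of the series, not on that of these groups. The pools of vehicle (10.92 and 8.17) and of untreated LuRKO at day 13 (9.07 and 10.62) were far apart in Rhox5. With limma's test on the 6 arrays alone the adjusted p was 1.3e-06. Levels over the time set were 8.49 and 8.34 at 2 h, 8.98 and 9.33 at 4 h, 10.15 and 10.02 at 8 h, 11.92 on the lone 24 h array, and 11.79 and 11.71 at 48 h. The 12 h pools thus lay between the 8 h and 24 h arrays, but the direct differences from them, 0.88 (adjusted p = 0.38) and -0.95 (adjusted p = 0.37), did not pass the test. Both tests used the same shared spread, which for Rhox5 was wider than that between the 8 h pools or the 12 h pools. Wild-type testes at day 19 had 11.49 and 11.32.

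Drd4, a dopamine receptor gene, stood at 10.42 in both 12 h pools, against 8.18 and 8.14 at 250 ng and 8.79 and 9.00 at 2.5 µg. Here the 2 low doses themselves did not overlap, and the increase was 1.89 ± 0.34 (3.71-fold, adjusted p = 0.0025). Drd4 was also far apart between the vehicle arrays (10.64 and 7.97), which enter the shared spread. It had an adjusted p of 2.1e-05 with limma's test on the 6 arrays alone. Without 12 h replicate A its adjusted p was 0.074 at a difference of 1.90. Defb45, a beta-defensin gene, rose from 8.78 to 9.07 over the 4 low-dose arrays to 10.25 and 10.38, a 2.63-fold increase (adjusted p = 6.8e-04). Eppin, a protease inhibitor gene of the male tract, rose 1.77-fold, from 10.23 to 10.84 over the low-dose arrays to 11.43 and 11.24 (adjusted p = 0.0032). Without 12 h replicate A the difference was 0.73 in place of 0.83 (adjusted p = 0.15). These 4 were the called members of the androgen-responsive list. In that list 4 of 20 genes tested were higher and none lower, against 1.35% and 0.638% of all genes tested. Its median difference was 0.23, where that of all genes was -0.00, and 16 of the 20 differences were positive.

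**Figure D1:**
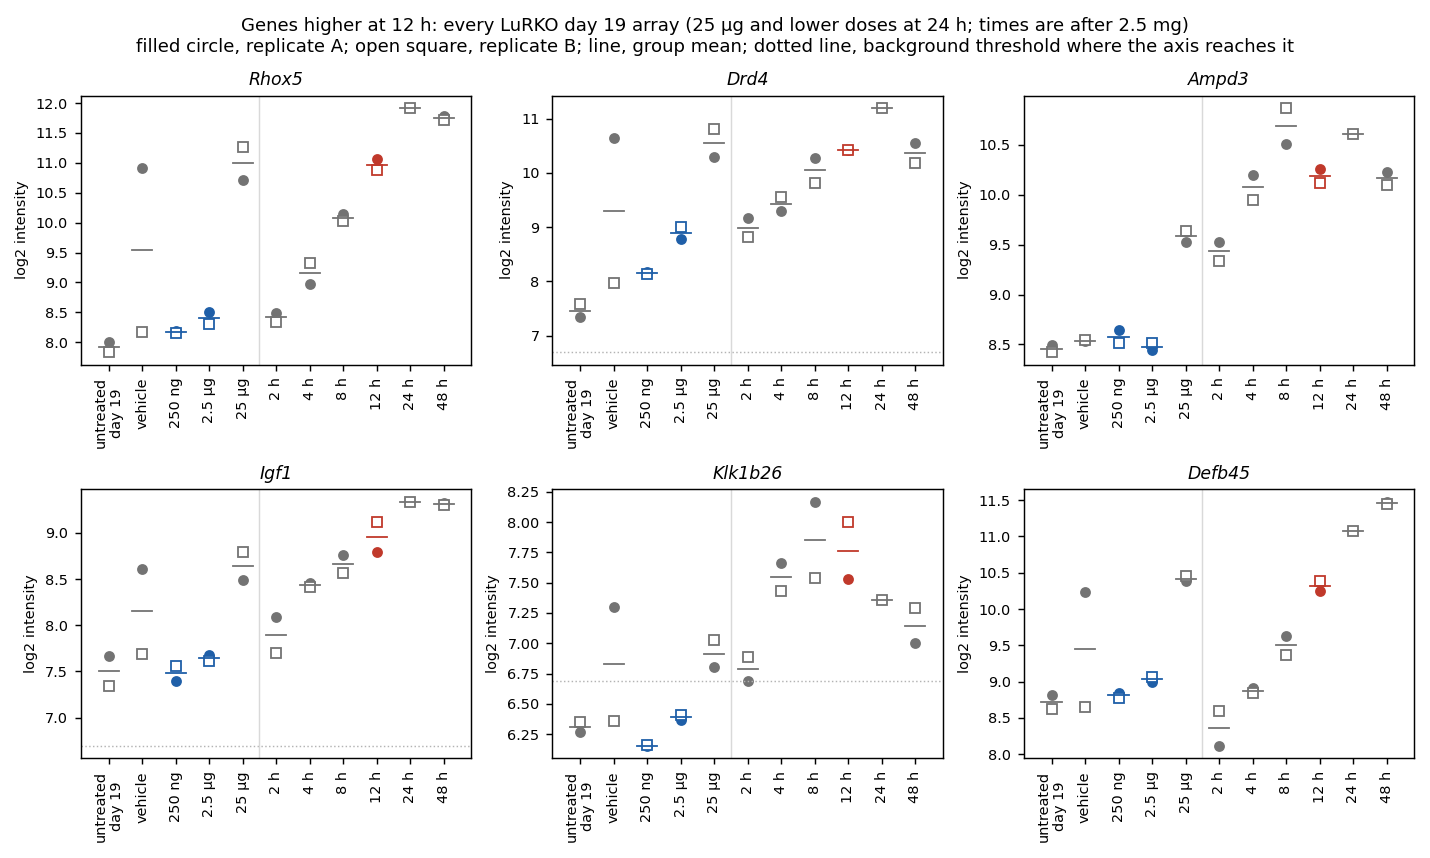
Log2 intensity of 6 genes on every LuRKO day 19 array, by dose at 24 h (left of the grey line) and by hours after 2.5 mg (right). In each gene both 12 h arrays (red) lay above all 4 low-dose arrays (blue), and the array labelled vehicle replicate A lay far above replicate B for all but Ampd3.

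Ampd3, which encodes an AMP deaminase of purine metabolism, had the smallest adjusted p of the genes named as higher. Its 4 low-dose levels lay between 8.44 and 8.64, and the 12 h pools were at 10.26 and 10.12, for a difference of 1.67 ± 0.11 (3.17-fold, adjusted p = 1.1e-10). It was higher on both 8 h arrays (10.51 and 10.87), and the fall from 8 h to 12 h, -0.50, had an adjusted p of 0.053. Vehicle replicate A, at 8.53, did not differ in Ampd3 from replicate B at 8.54, unlike in Rhox5 (10.92 and 8.17).

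Igf1, insulin-like growth factor 1, rose from 7.40 to 7.68 over the low-dose arrays to 8.79 and 9.12 (2.63-fold, adjusted p = 2.5e-05), and was the sole gene called of 16 insulin-like and fibroblast growth factor genes tested. A second Igf1 probe differed by 0.64. Pdlim1, a cytoskeletal adaptor gene, rose 2.44-fold to 10.36 and 9.98, and Tgm2, the transglutaminase 2 gene, rose 1.93-fold to 11.96 and 11.88. Tgm2 alone was called of 21 targets shared by the glucocorticoid and androgen receptors. Among the rest of that list the differences were 0.22 for Fkbp5, -0.32 for Tsc22d3, 0.11 for Zbtb16 and -0.19 for Per1. Slc38a5, an X-linked amino acid transporter gene, rose 2.10-fold (adjusted p = 0.0087), a call lost without either 12 h pool at differences of 0.98 and 1.16 (adjusted p = 0.20 and 0.054), against 1.07 with both. Spon2, which encodes a secreted matrix protein, rose 2.32-fold against the low doses, to 8.19 and 8.28 from 6.89 to 7.23. The untreated day 19 arrays had Spon2 at 8.23 and 7.91, and the difference from them was 0.16 (adjusted p = 0.52).

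The tissue kallikreins are serine proteases, and several Klk1b paralogs are known from Leydig cells of the adult mouse testis. Klk1b21 rose to 8.54 and 8.75 from 6.61 to 6.96, a difference of 1.82 ± 0.35 (3.52-fold, adjusted p = 0.0042). It too was far apart between the vehicle arrays (9.19 and 6.46), which enter the shared spread. Its adjusted p was 4.0e-05 with limma's test on the 6 arrays alone. In this gene 1 of the 4 low-dose arrays was not above background. For Klk1b26 none of the low-dose arrays was above background, and the 12 h levels of 7.53 and 8.00 were at least 2.11-fold higher (adjusted p = 1.5e-05). Klk1 likewise went from below background to 7.36 and 8.00, at least 1.99-fold higher (adjusted p = 1.1e-05). Klk1b27 rose by 1.17 and Klk1b24, named after its values were seen, by 1.04 (adjusted p = 0.0063 and 0.0044), each with 1 of 4 low-dose arrays above background. The calls of Klk1b21 and Klk1b27 were lost without either 12 h pool (adjusted p from 0.075 to 0.098), at differences of 1.71 and 1.92 for Klk1b21, and that of Klk1b24 without replicate B (0.89, adjusted p = 0.12). Each of the 5 genes already passed the test against the low doses at 4 h, where Klk1b21 was at 8.79 and 8.42 and Klk1b26 at 7.66 and 7.43. None passed it between 8 h and 12 h (adjusted p from 0.67 to 0.96). Insl3 at 9.03 and 8.76 and Cyp17a1 at 7.47 and 7.80 stayed far below their wild-type levels at 12 h. None of 12 Leydig cell markers and none of 6 steroidogenesis genes tested were called against the low doses.

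Among the 176 higher genes were many that rise as the wild-type testis matures. A 4-fold or larger increase from day 8 to day 27 in wild type was found for 76 of the 176 (43.2%), where 1261 of all genes tested (9.7%) had it. The wild-type arrays entered the 12 h comparison only through the spread shared by all arrays. This division was made after the values were seen and is a description. A probe could also be tested through the 12 h arrays alone, as that of Klk1b26 was. The share of all genes tested is therefore not independent of the 12 h levels. The division takes in the kallikreins Klk1b21, Klk1b24, Klk1b26 and Klk1b27 beside the spermatid genes. In bulk testis RNA, more cells of a type and more RNA per cell cannot be told apart. The 76 genes were uneven between the pools: replicate A was above replicate B for 66 of them, with a median difference of 0.52, against 51 of 100 and 0.00 for the other genes called higher. Without replicate A, 4 of the 76 and 20 of the 100 were still called higher. Without replicate B it was 53 and 40.

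**Figure D2:**
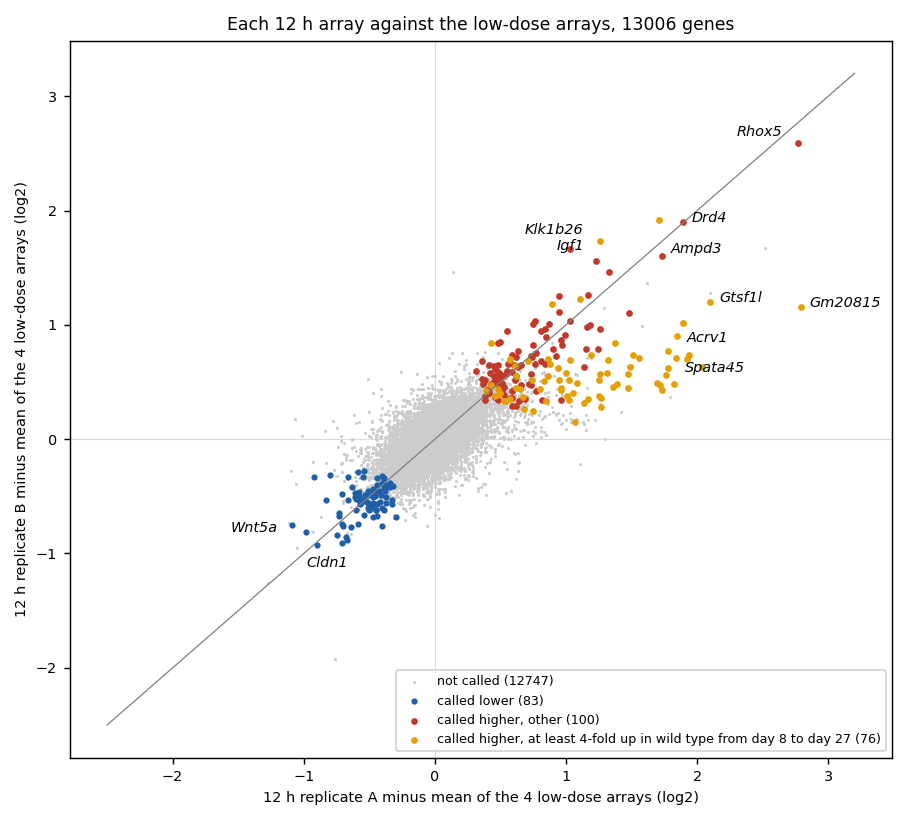
Difference of each 12 h array from the mean of the 4 low-dose arrays on the log2 scale, replicate A across and replicate B up, 1 point per gene. Genes called higher that rise at least 4-fold in wild type from day 8 to day 27 (yellow) lie mostly below the line of equality, and the other 100 genes called higher (red) lie on both sides of it.

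Gtsf1l, a gametocyte-specific factor gene, was at 9.00 in replicate A and 8.10 in replicate B, against 7.49 and 6.93 at 250 ng and 6.43 and 6.73 at 2.5 µg. Both pools exceeded every low-dose array, by 1.65 ± 0.20 on average (3.14-fold, adjusted p = 1.1e-05), and a second probe rose by 1.30. In a fit of the 6 arrays alone the adjusted p was 0.008. Leaving out either pool gave 1.20 and 2.10, both called. The 8 h arrays were at 6.13 and 6.54, so that 12 h exceeded 8 h by 2.21 (adjusted p = 4.2e-06). Gtsf1l was lower again on the lone 24 h array, at 7.53 (12 h minus 24 h 1.02, adjusted p = 0.042), and reached 9.86 and 10.35 at 48 h. Wild-type levels were 9.52 and 9.70 at day 19 and 14.58 and 14.35 at day 27.

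Acrv1, an acrosomal vesicle protein of spermatids, was at 8.32 and 7.37 at 12 h. Of the low-dose arrays only 250 ng replicate A, at 6.89, was above background, and the difference was 1.37 ± 0.20 (adjusted p = 2.0e-04). The mean of the low-dose arrays, 6.47, was under the threshold of 6.69, so the size of the difference rests on background there. Without replicate A the difference was 0.90 (adjusted p = 0.087). Spata45, a spermatogenesis-associated gene, had 8.51 and 7.38 against 6.44 to 7.32, and Gm2888 had 9.58 and 8.72 against 7.26 to 8.08 (adjusted p = 0.0019 and 2.4e-04). Without replicate A the differences were 0.71 (adjusted p = 0.29) and 1.02 (adjusted p = 0.093). Untreated day 19 testes came close to the lower 12 h pool in these genes, with Spata45 at 7.65 and 6.88 and Gm2888 at 8.63 and 7.99. Spata45 did not differ from untreated (0.68, adjusted p = 0.066), while Acrv1 did (0.91, adjusted p = 0.0049). In a fit of the 6 arrays alone the adjusted p against the low doses was 0.02 for Acrv1, 0.0081 for Gm2888 and 0.08 for Spata45.

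**Figure D3:**
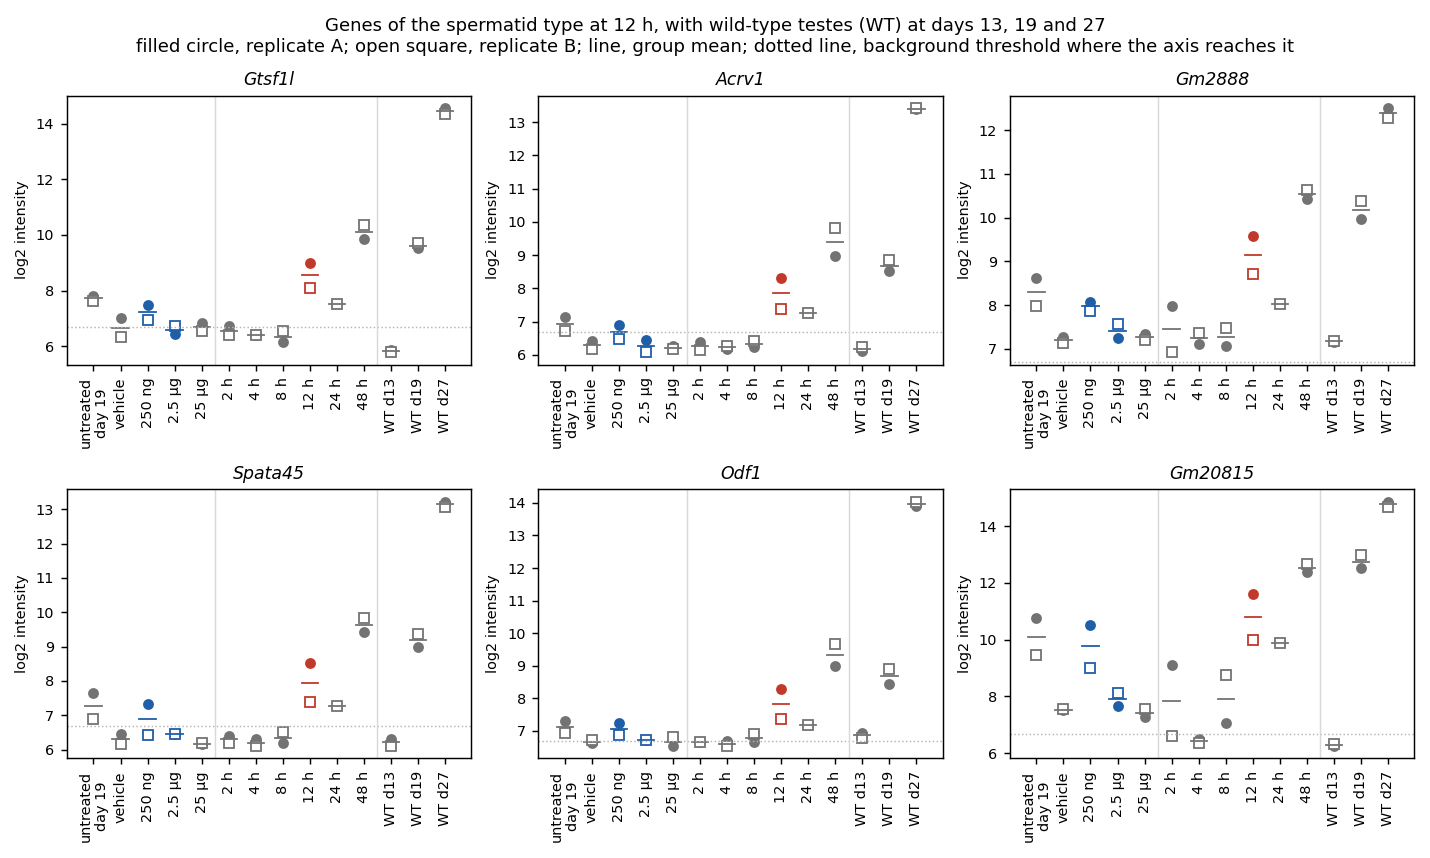
Log2 intensity of 6 genes with the 4-fold wild-type increase on every LuRKO day 19 array and in wild type (WT) at days 13, 19 and 27. Replicate A exceeded replicate B at 12 h in each gene, and the 48 h arrays and wild type at day 27 were higher still.

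Where 1.35% of all genes tested were called higher, 3 of 18 in the spermatid list were, with none lower and a median difference of 0.32. Besides Acrv1 these were Odf1, an outer dense fibre gene of the sperm tail (8.29 and 7.37 against 6.71 to 7.25, adjusted p = 0.0053), and Spaca7, an acrosome gene (7.83 and 6.93 against 6.10 to 6.90, adjusted p = 0.0042). In a fit of the 6 arrays alone Odf1 and Spaca7 were not called (adjusted p = 0.081 and 0.1). Without replicate A neither was called, at 0.48 (adjusted p = 0.44) and 0.46 (adjusted p = 0.41). The mean level of the 18 genes was 8.94 in replicate A and 8.58 in replicate B, against 8.28 to 8.51 in the low-dose arrays, 8.61 and 8.44 untreated, 9.40 and 9.79 at 48 h and 9.21 and 9.44 in wild type at day 19. Replicate B was thus within the range of the untreated arrays for this list. Among the members not called, Tnp1, a transition protein gene of spermatid chromatin, differed by 0.15 and Akap4, a sperm tail gene, by 0.38. Earlier germ cell stages gave no call: 0 of 19 spermatogonial and 0 of 22 meiotic prophase genes passed limma's test. Stra8, which is needed to enter meiosis, was at 8.92 and 9.11 against 9.54 to 9.98 (-0.78, adjusted p = 0.081).

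Genes of the Y chromosome were frequent among the higher genes, 6 of 176 (3.41%) against 14 of all 13006 genes tested (0.108%). The 6, named after their values were seen, were Gm20815, Gm21943, Gm20867, Gm20747, Gm20738 and Ssty1, a spermiogenesis-specific transcript of the Y. All 6 rose by at least 5.26 on the log2 scale from day 8 to day 27 in wild type. Many copies of such genes lie on the Y, so a probe can read several of them and they are not separate measurements. Gm20815 was at 11.62 in replicate A and 9.99 in replicate B, and the low-dose arrays ranged from 7.68 to 10.53, so the groups overlapped although the gene was called (1.98, adjusted p = 0.023). Without replicate A the difference was 1.16 (adjusted p = 0.55). Gm21943 (0.63, adjusted p = 0.62), Gm20867 (0.70, adjusted p = 0.30) and Gm20738 (0.74, adjusted p = 0.15) also lost their calls without it. In 4 of the 6 genes, all but Gm20738 and Ssty1, the groups overlapped. Against untreated day 19 testes Gm20815 (0.70, adjusted p = 0.4) and Gm21943 (0.11, adjusted p = 0.88) did not differ. Gm20867 (0.87, adjusted p = 0.021) and Gm20738 (0.82, adjusted p = 0.0056) were higher than untreated. In a fit of the 6 arrays alone Gm20815, Gm21943, Gm20867 and Gm20738 were not called (adjusted p from 0.059 to 0.12). On the X chromosome 11 genes were higher (6.25%, against 3.53% of genes tested), Rhox5 and Slc38a5 among them.

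The genes lower at 12 h changed less. A 4-fold or larger fall from day 8 to day 27 in wild type was found for 17 of the 83 (20.5%), where 1070 of all genes tested (8.23%) had it. Cldn1, a claudin of tight junctions, was at 7.21 and 7.18 against 7.91 to 8.34 in the low-dose arrays, a 1.88-fold decrease (-0.91 ± 0.14, adjusted p = 2.8e-04). It was the sole gene called of 16 tight and gap junction genes tested. Cldn11, the main claudin of Sertoli cells, differed by 0.17 and Cldn3, another claudin of that barrier, by 0.27, neither called (adjusted p = 0.53 and 0.31). Secreted Wnt pathway genes were the 2 called of 16 Notch and Wnt genes tested. Wnt5a, a ligand, fell 1.89-fold, from 9.58 to 9.96 to 8.75 and 9.09, with its other probes at -0.52 and -0.46, and Dkk3, of the Dickkopf family, fell 1.86-fold, from 9.95 to 10.54 to 9.15 and 9.32. Dkk3 also fell between 8 h, at 9.95 and 10.28, and 12 h (-0.88, adjusted p = 0.018). Without replicate A Wnt5a was at -0.75 (adjusted p = 0.25) and Dkk3 at -0.81 (adjusted p = 0.11).

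Matrix genes lower at 12 h included Ccn2, a matricellular growth factor gene, at 12.52 and 12.32 against 13.12 to 13.33 (1.75-fold lower, adjusted p = 2.3e-04), and Tgfbi, an adhesion protein gene, at 10.05 and 10.35 against 10.75 to 11.01. Ccn2 fell from 8 h as well (-0.61, adjusted p = 0.024), but its untreated levels of 12.79 on both arrays were closer, at -0.37 (adjusted p = 0.058). The list of 25 collagen, laminin and matrix genes had 1 gene called, Timp3, a metalloproteinase inhibitor, at -0.41, with a probe of the same gene at 0.06. The Timp3 call was lost on leaving out any of the 6 arrays in turn, with differences from -0.54 to -0.28. The list median was -0.10. Sertoli cell markers had 1 of 20 called, Gdnf, the Sertoli cell growth factor for spermatogonial stem cells, at 8.47 and 8.43 against 8.68 to 8.91 (-0.38, adjusted p = 0.038, lost without any of 5 of the 6 arrays in turn). Amh at -0.14, Inha at -0.14 and Fshr at 0.03, all Sertoli cell genes, were not called.

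Circadian clock genes formed the list with the most lower calls, 5 of 14 tested, with none higher and a median of -0.29. Of all genes tested, 0.638% were called lower. Dbp, a clock output transcription factor, was at 11.44 and 11.41 against 12.05 to 12.22 (-0.73 ± 0.11, adjusted p = 2.8e-04). Nr1d1, a nuclear receptor that represses clock genes, was not above background on either 12 h array and at least 1.64-fold lower than at the low doses, where it was at 7.36 to 7.43. Per2 (-0.58), Bhlhe40 (-0.53) and Nr1d2 (-0.52) made up the rest. With limma's test on the 6 arrays alone Dbp and Nr1d1 were called (adjusted p = 0.013 and 0.0067). Per2, Bhlhe40 and Nr1d2 were not (adjusted p = 0.08, 0.069 and 0.085). Leaving out single arrays ended the calls of these 3 in 1 to 5 of 6 cases, and Per2 was at -0.40 without 12 h replicate B (adjusted p = 0.26). Arntl, the activator that peaks opposite to Dbp in most tissues, was not called at 0.21. The labels give no time of day, and a collection 12 h rather than 24 h after injection need not fall at the same hour, so time of day cannot be told apart from dose here. Within the time set, Per2 was at 9.75 and 9.87 at 8 h, 9.33 and 8.97 at 12 h and 9.72 on the lone 24 h array, and its fall from 8 h was called (-0.66, adjusted p = 0.015). At 48 h it was at 9.30 and 9.24, as low as at 12 h. Other clock genes were below the same low-dose arrays before 12 h. Dbp differed from them by -0.42, -0.49 and -0.44 at 2, 4 and 8 h (adjusted p = 0.036, 0.0036 and 0.021). Nr1d1 differed by -0.46 at 2 h and -0.73 at 8 h (adjusted p = 0.041 and 9.8e-04), and Bhlhe40 by -0.62 and -0.56 at 2 and 4 h (adjusted p = 0.012 and 0.0069). Nr1d2, like Per2, was not called before 12 h. Dbp did not differ from the untreated arrays, at 11.63 and 11.61 (-0.19, adjusted p = 0.31), whereas Nr1d1 did (-0.56, adjusted p = 0.0054). Against the single array of vehicle replicate B, for which only sizes are given, the differences were -0.65 for Dbp and -0.67 for Nr1d1. They were smaller for Bhlhe40 (-0.42), Per2 (-0.34) and Nr1d2 (-0.14).

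**Figure D4:**
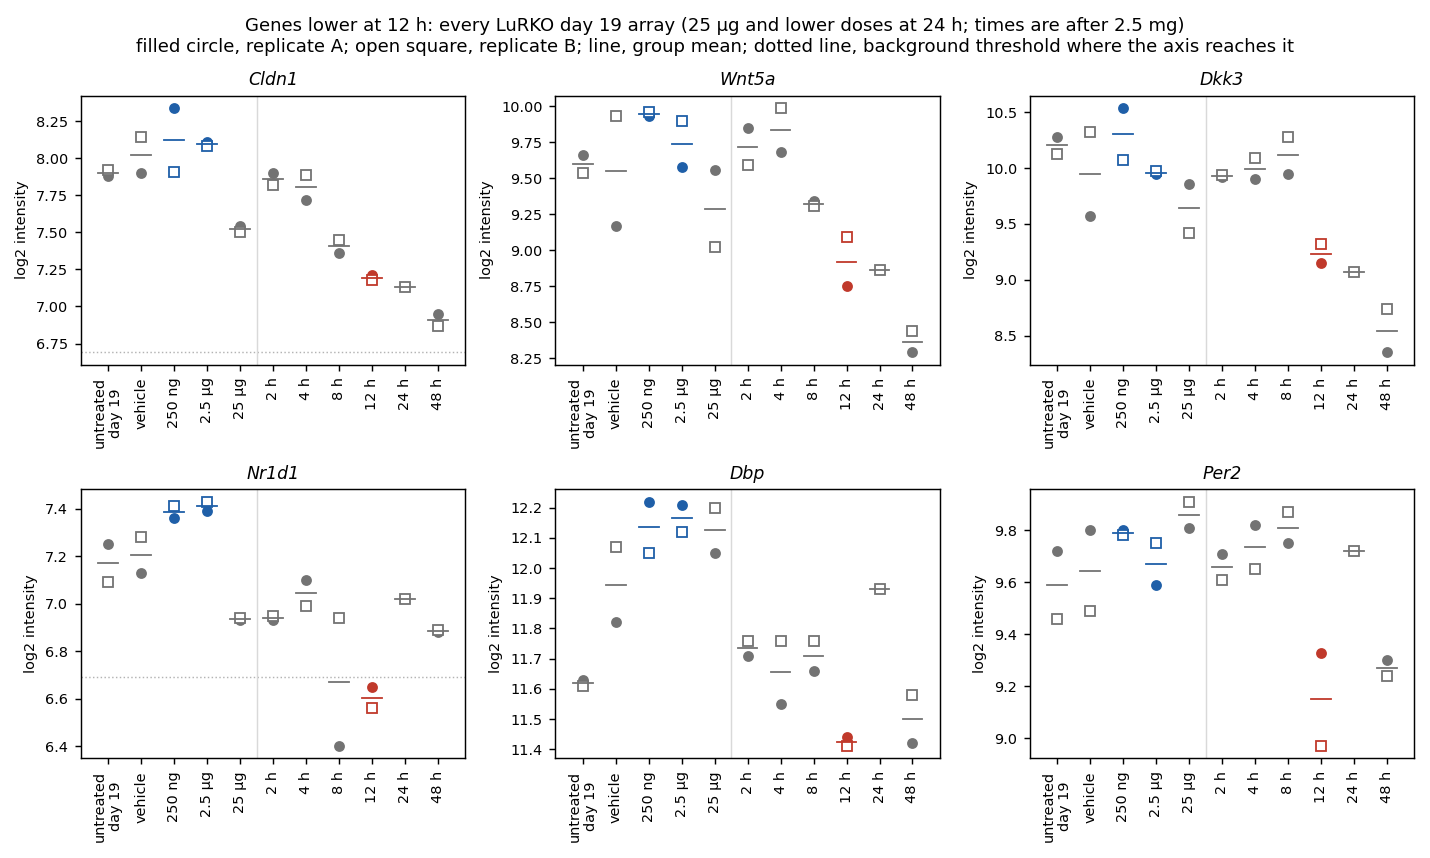
Log2 intensity of 6 genes lower at 12 h on every LuRKO day 19 array, by dose at 24 h (left of the grey line) and by hours after 2.5 mg (right). Cldn1, Wnt5a and Dkk3 were lower still at 48 h, and Per2 was lower at 12 h and 48 h than at 8 h and 24 h.

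Shisa2, Pamr1, Fam180a, Slco2b1 (an organic anion transporter), Crym (a thyroid hormone binding protein), Bmf (a pro-apoptotic BH3-only protein), Otof and Ncoa4 (a ferritin receptor of autophagy) differed by -0.77 to -0.62. Pamr1 was not above background on either 12 h array and was at least 1.55-fold lower. Ncoa4 was carried by 1 probe, since its other probes stood at -0.24 and 0.11, and by replicate A, without which it was at -0.33 (adjusted p = 0.59). Crym was called in 8 of 23 other settings, and Shisa2 and Fam180a in 17 of 23. Against untreated testes Bmf (-0.16, adjusted p = 0.46) and Ncoa4 (-0.08, adjusted p = 0.78) did not differ. Shisa2, Pamr1, Fam180a, Slco2b1, Crym and Otof were called lower than untreated. Hspa5, the main chaperone of the endoplasmic reticulum, was at 9.03 and 8.92 against 9.32 to 9.74 (-0.53, adjusted p = 0.015), but the untreated arrays were far above both groups at 11.15 and 10.83. Other single members of a list that were called lower were Rdh10, a retinol dehydrogenase (-0.56), and Id2, an inhibitor of helix-loop-helix factors (-0.56). Without replicate A Rdh10 was at -0.31 (adjusted p = 0.48). The Id2 call was lost without any 1 of 4 arrays, among them either 12 h pool, at -0.60 and -0.51 (adjusted p = 0.19 and 0.23).

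**Figure D5:**
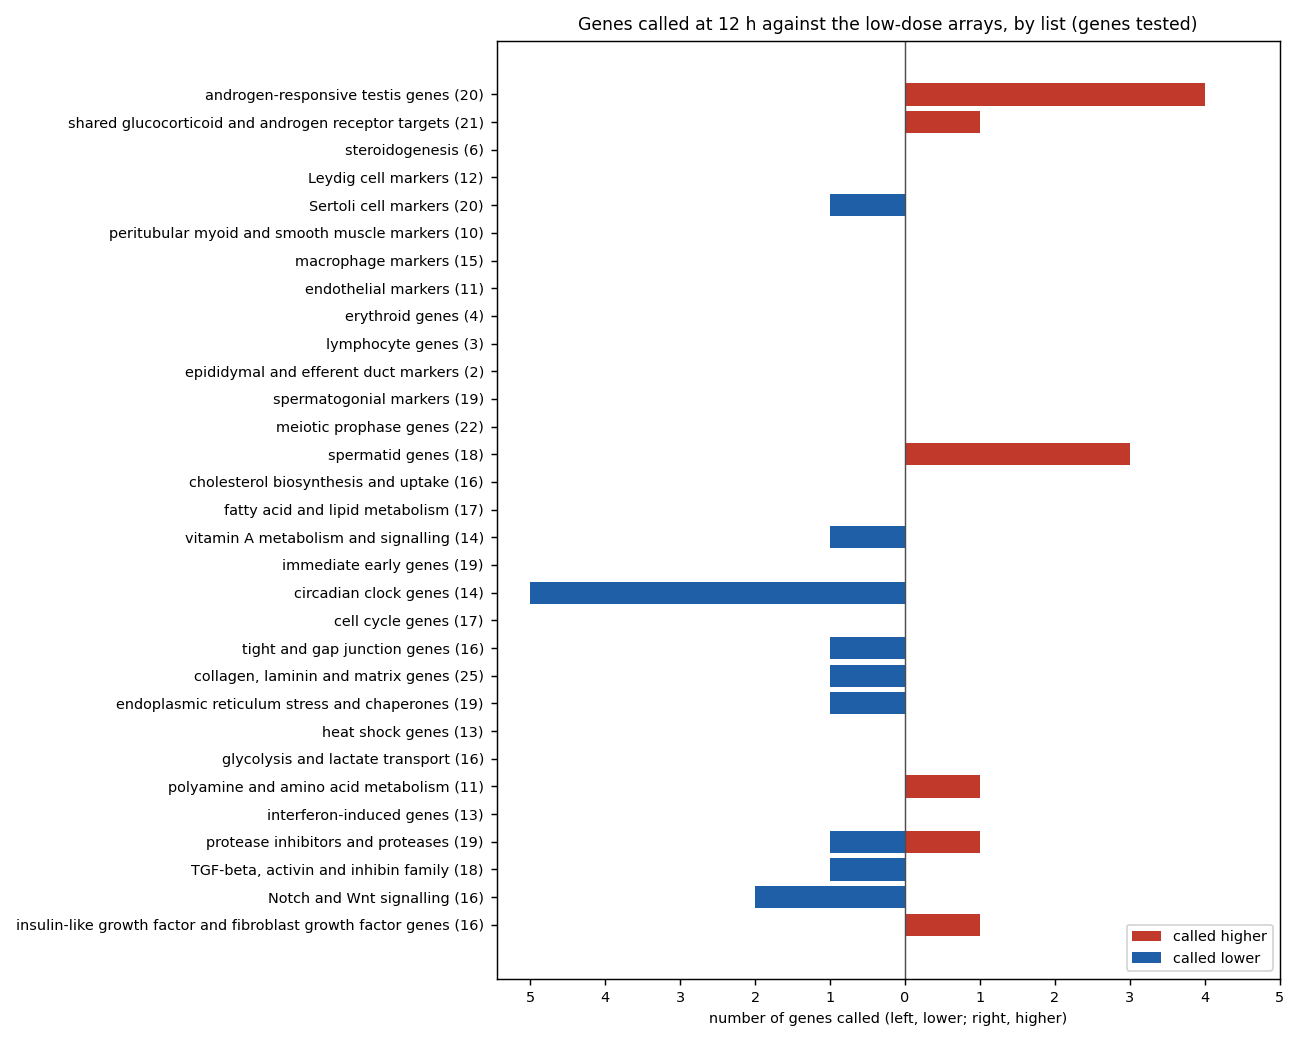
Number of genes called higher (right) and lower (left) at 12 h against the low-dose arrays in each of 31 gene lists, with the number of genes tested in brackets. The circadian clock list has 5 lower and the androgen-responsive list 4 higher, and 17 lists have no call.

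Across the 31 lists, 10 of 435 genes tested were called higher and 13 lower, against 1.35% and 0.638% of all genes tested. No gene was called among markers of peritubular myoid cells (10 tested), macrophages (15), endothelium (11), erythroid cells (4), lymphocytes (3) or the epididymis (2), with list medians from -0.12 to 0.16. Actg2, a smooth muscle actin gene, came closest at 0.61 (adjusted p = 0.067). Cholesterol synthesis (16), lipid metabolism (17), immediate early (19), cell cycle (17), heat shock (13), glycolysis (16) and interferon-induced (13) genes gave no call either by limma's test.

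Genes higher at 12 h overlapped those that LuRKO testes lack. Between untreated LuRKO and wild-type testes at day 19, 1552 genes (11.9%) were lower in LuRKO and 1748 (13.4%) higher. Those arrays enter the 12 h comparison only through the shared spread. Of the 176 genes higher at 12 h, 110 (62.5%) were among those lower in LuRKO, or 7.09% of that list, and 6 (3.41%) were among those higher. These were 64 of the 76 genes with the wild-type increase and 46 of the other 100. Of the 83 genes lower at 12 h, 33 (39.8%) were higher in LuRKO, or 1.89% of that list, and 2 (2.41%) were lower. The LuRKO minus wild-type difference was -3.49 for Rhox5, -3.18 for Drd4 and -2.14 for Klk1b21, and 1.71 for Dkk3 and 1.00 for Cldn1. It was smaller for Ampd3 (-0.62, adjusted p = 0.0011), and did not pass the test for Tgm2 (-0.23, adjusted p = 0.16) and Spon2 (0.23, adjusted p = 0.30).

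The direct comparison with 8 h called 172 genes (1.32% of genes tested), 146 higher and 26 lower at 12 h. Its differences use no low-dose array, but its shared spread and the choice of probes do. In a fit of the day 19 LuRKO arrays alone the count was 10. Of the 146, 127 (87%) were genes with the 4-fold wild-type increase, and Gm20815 (2.89), Gtsf1l (2.21), Gm21943 (1.92), Gm2888 (1.88) and Gm20867 (1.67) were the largest with no overlap. The count rested on 2 arrays: it was 8 without 12 h replicate A and 14 without 8 h replicate A. Lower at 12 h were Lats1 (-1.32), a kinase of the Hippo pathway, Slc25a18 (-1.12), a mitochondrial glutamate carrier, Angptl7 (-1.07) and Dusp1 (-0.89), a phosphatase of MAP kinases and an immediate early gene. Dusp1 was at 10.49 and 10.31 at 8 h, 9.62 and 9.40 at 12 h, and 9.51 to 9.90 in the low-dose arrays, so that at 12 h it did not differ from these (-0.22, adjusted p = 0.36). Slc25a18 was high at 8 h (10.05 and 9.98) and in untreated testes (10.07 and 10.18) but not at 4 h or 12 h.

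The single 24 h array after 2.5 mg differed from 12 h in 460 genes (3.54%), 210 higher and 250 lower at 12 h. Here 1 array stood for a group and was assumed to vary like the rest. Interferon-induced genes were among the largest decreases, 11 of 13 tested being lower at 12 h with a list median of -1.36. The mean level of this list was 9.62 on the 24 h array. It also differed between partner pools at 48 h (9.02 and 8.03) and at 25 µg (8.85 and 8.43). Ifi27l2a was at 8.47 and 8.62 at 12 h and 12.28 on the 24 h array, and Ifit3 differed by -2.90. The 12 h arrays did not differ from the low-dose arrays in Ifi27l2a (-0.41, adjusted p = 0.43), and 12.28 exceeded every other LuRKO day 19 array. The other large decreases without overlap were Cfap69 (-2.83), a flagellum gene, Plac8 (-2.48) and Gbp3 (-2.39), an interferon-induced GTPase. Higher at 12 h were Ccdc178 (1.61), Ctsl (1.59), a lysosomal protease gene, Zc3h13 (1.56), an RNA methylation cofactor gene, Gm5796 (1.50) and Taf15 (1.47).

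Untreated day 19 testes served as a second check. The low-dose arrays themselves differed from them in 2453 genes (18.9%), and the 12 h arrays were above them in 1225 genes (9.42%) and below them in 1182 (9.09%). With untreated testes in place of the low doses, and the same 12 h arrays, 110 of the 176 genes were still called higher: 35 of the 76 with the wild-type increase and 75 of the other 100. Of the 83 lower genes 53 were still called lower. Rhox5 (3.05), Drd4 (2.96), Klk1b21 (1.93), Klk1b26 (1.46) and Gtsf1l (0.83) were called against both controls.

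Both sets of higher genes were followed over the other times as medians of their differences from the same low-dose arrays. The 76 genes with the wild-type increase had medians of -0.03 at 2 h, -0.30 at 4 h, -0.13 at 8 h, 0.78 at 12 h, 0.32 on the 24 h array and 1.87 at 48 h. The other 100 had 0.25, 0.41, 0.58, 0.60, 0.67 and 0.55. At 25 µg and 24 h the medians were -0.22 and 0.39. Since the genes were chosen at 12 h and every time shares its controls, these medians describe the course of the chosen genes only.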

How the data were processed

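Testis RNA was amplified to biotin-labelled cRNA and hybridised to Illumina bead arrays, read with BeadStudio per the submitters' processing notes. The deposited values used are intensities on a linear scale that, from the values, the authors had already normalized by quantiles; 76 columns of a second table match no label and were not used. Here log2 was taken with no further background correction. A probe counted as above background over 103.2 (6.69 on the log2 scale), set at a one-sided level of 0.01 from how far intensities fall under their mode of 76.4. On the array, 34885 of 45281 probes had 1 symbol, 18 several and 10378 none listed; 21063 were tested. Each gene is represented by its brightest probe on average, and 5247 genes had several. Of 97 called genes with several probes, 21 had a probe of the opposite sign.

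The fit, with limma 3.58.1 under R 4.3.3, gave every group its mean and used all 38 arrays (18 residual and 10.6 prior degrees of freedom), adjusted by Benjamini and Hochberg over all probes tested. Where all arrays of a group were at background, the fold is a lower bound, written as at least N-fold: each such array entered at the threshold, or at its signal if that was higher. The fit was tested on simulated data. Sequences were aligned with Biopython. The number of arrays limits the precision.

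Members, gene lists and tests were chosen with earlier results of these data known. Genes named are the 15 largest changes each way among called genes whose groups do not overlap, the 5 largest each way for the 8 h and 24 h comparisons, up to 4 called members of each list or its largest change, and a fixed panel; others are said to be named after their values were seen, except uncalled list members and medians given as description. Alternatives tried were normexp with offsets of 50 and 16, scaling, filters, control groups, subsets of arrays, the mean of a gene's probes, another eBayes setting, a replicate block and leaving out each array; 2 alternatives on the vehicle arrays were added after seeing the data. Same-lettered pools did not deviate together (correlations of 0.14, -0.09 and 0.03).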

Additional observations from a re-analysis of the deposited data

Results flagged for a closer look

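Differences between time points under the same dose were called for 172 genes between 12 h and 8 h and for 460 genes between 12 h and the lone 24 h array. Among the 30 genes named for 12 h against the low doses, 6 differed between 12 h and 8 h: Gtsf1l by 2.21, Gm2888 by 1.88, Spata45 by 1.60, Acrv1 by 1.53, Dkk3 by -0.88 and Ccn2 by -0.61. Gtsf1l (1.02) and Gm2888 (1.13) were also higher at 12 h than at 24 h. In Gtsf1l, Gm2888, Spata45 and Acrv1 12 h replicate A was above replicate B, and the part of this pool in the differences is given by the values without it.

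The array labelled vehicle replicate A, which enters the comparisons above only through the spread shared by all arrays, had Insl3 at 12.34, Cyp17a1 at 10.92 and Rhox5 at 10.92, against 9.24, 7.46 and 8.17 in vehicle replicate B.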

How the results depend on the processing

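For 51 named genes recomputed under up to 23 other settings, 952 of 1157 values kept direction and call, 203 kept the direction but not the call, and 2 changed sign. Those were Zc3h13, at -0.07 with both vehicle arrays and -0.31 with vehicle replicate B as controls. Ampd3, Cldn1, Gtsf1l, Igf1, Klk1, Klk1b26, Pdlim1 and Tgm2 were called in every setting run on them. Leaving out 12 h replicate A ended 32 of the 51 calls, and leaving out replicate B ended 17. Rhox5 and Defb45 lost theirs only with both vehicle arrays as controls. Higher genes numbered 87 against 250 ng alone, 92 in a fit of the day 19 LuRKO arrays, 106 among probes at least 2 times the threshold, 55 in a fit of the 6 arrays and 1225 against untreated testes. Lower genes numbered 31 against 2.5 µg alone, 35 in the day 19 LuRKO fit, 12 in the fit of 6 arrays, 1182 against untreated testes and 45 against vehicle replicate B. Leaving out single arrays gave 25 to 205 higher genes and 10 to 98 lower ones. The count was 25 and 10 without 12 h replicate A, 132 and 20 without 12 h replicate B, 112 and 42 without 2.5 µg replicate A, and 127 and 47 without 250 ng replicate B. The cause of these changes was not tested, beyond the fewer arrays of the smaller fits.

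The 8 h comparison called 10 genes in the day 19 LuRKO fit, 78 among the brighter probes, 114 after normexp with an offset of 16, and 8 to 127 without single arrays. The 24 h comparison called 293 in the day 19 LuRKO fit and 143 to 168 without 1 of the 12 h pools. Low doses against untreated testes gave 1028 to 2476 without single arrays, the lowest without untreated replicate A. With a replicate block, although the letters did not pair the pools, counts were 177 higher and 83 lower, 161 for 8 h, 548 for 24 h and 2442 for low doses against untreated. Genes near background are limited by signal: the folds of Klk1, Klk1b26, Nr1d1 and Pamr1 are bounds, and those of the other kallikreins rest on low-dose levels close to the threshold.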
